A study of Mus musculus with 5 samples.

Results

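Troponin and tropomyosin form the calcium switch on the thin filament of muscle, and the data described here are the levels of 10 genes that encode their subunits in tibialis anterior (TA) muscle. The genes were taken by name from the table of 17015 genes: troponin I (Tnni1 and Tnni2), troponin T (Tnnt1, Tnnt2 and Tnnt3), troponin C (Tnnc1 and Tnnc2) and tropomyosin (Tpm1, Tpm2 and Tpm3). The rule names genes and uses no level or difference, but the family was picked with earlier results of these data known. All 10 passed the minimum level for testing. TA came from sedentary male mice aged 8 weeks and gave 5 RNA-seq libraries, 3 of WT control and 2 labelled skmNrip1-/-, which is fewer than the mice per group that the study names for this comparison. In skmNrip1-/- mice, Cre recombinase driven by the myogenin promoter removes loxP-flanked exon 4 of Nrip1, the gene for the coregulator RIP140, in skeletal muscle. The WT control animals are littermates without Cre, and the floxed (C57BL/6J) and Cre (C57BL/6JN) parents are named by the study. Values are FPKM, which divide the fragments of a gene by its transcript length and by a factor for its library, so levels can be set side by side between genes of different length. The comparison asks whether the troponin and tropomyosin isoforms of slow and fast fibers differ in level when RIP140 is deleted in a fast-twitch muscle.

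When calcium rises in a muscle fiber it binds troponin C, troponin I then releases its hold on actin, and troponin T passes the movement to tropomyosin, which slides away from the myosin binding sites. Slow and fast fibers use separate genes for the troponin subunits. Tnni1, Tnnt1 and Tnnc1 encode the slow forms, with Tnnc1 also serving the heart, and Tnni2, Tnnt3 and Tnnc2 encode the fast forms. Tnnt2 is the cardiac form of troponin T and is also expressed in embryonic skeletal muscle. Among the tropomyosins, Tpm1 gives the alpha chain of fast fibers, Tpm3 the alpha chain of slow fibers, and Tpm2 the beta chain. All tropomyosin genes also give non-muscle forms through other promoters and splicing, and the table holds 1 value per gene.

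In the GENCODE M21 annotation of GRCm38, genes for troponin I and troponin T lie near each other. Tnni2 (chromosome 7, 142441808 to 142444410) is followed on the same strand by Tnnt3 (142498836 to 142516009), with 54425 bases between them that hold 1 gene. Tnni1 (chromosome 1, 135779434 to 135810989) is followed by Tnnt2 (135836354 to 135852260), with 25364 bases between them that also hold 1 gene. Tnnt1 (chromosome 7, 4504570 to 4516382) lies 1922 bases from the cardiac troponin I gene Tnni3, which is no member. The other members each lie on a chromosome that holds no other member. Tnnc1 is on chromosome 14 (31208312 to 31211729) and Tnnc2 on chromosome 2 (164777161 to 164779967). Tpm1 is on chromosome 9 (67022590 to 67049406), Tpm2 on chromosome 4 (43514711 to 43523765) and Tpm3 on chromosome 3 (90072649 to 90100902). The members have 2 (Tnnc2) to 27 (Tnnt3) annotated transcripts. The longest transcripts of the fast troponin genes are short, at 895 bases for Tnni2, 1079 for Tnnt3 and 700 for Tnnc2.

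RefSeq promoter windows (GRCm38.p6, 250 bases before to 50 after the transcription start) were at hand for 8 of the 10 members. The troponin C pair and Tpm2 are shown, since Tnnc1 and Tnnc2 are the slow and fast forms whose ratio separated the groups, and Tpm2 is the member with the smallest unadjusted p. Each is written 5′ to 3′ on the gene's strand, and capitals mark matches on either strand to CANNTG (the E-box of myogenic factors), CATTCC (the MCAT element) and TATAA. No match overlaps another.
Tnnc1, chr14:31208062-31208361, plus strand: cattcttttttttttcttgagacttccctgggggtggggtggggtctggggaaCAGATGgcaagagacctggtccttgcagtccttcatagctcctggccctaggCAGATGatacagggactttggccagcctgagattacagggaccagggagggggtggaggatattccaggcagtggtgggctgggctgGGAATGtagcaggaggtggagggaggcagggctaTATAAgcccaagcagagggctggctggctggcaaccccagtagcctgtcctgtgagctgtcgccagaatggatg
Tnnc2, chr2:164779685-164779984, minus strand: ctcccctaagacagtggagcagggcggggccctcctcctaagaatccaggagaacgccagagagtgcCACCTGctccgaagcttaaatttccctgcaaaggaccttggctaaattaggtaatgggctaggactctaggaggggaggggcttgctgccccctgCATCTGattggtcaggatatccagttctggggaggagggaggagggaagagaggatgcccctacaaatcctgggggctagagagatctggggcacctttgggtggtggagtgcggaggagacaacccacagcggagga
Tpm2, chr4:43523505-43523804, minus strand: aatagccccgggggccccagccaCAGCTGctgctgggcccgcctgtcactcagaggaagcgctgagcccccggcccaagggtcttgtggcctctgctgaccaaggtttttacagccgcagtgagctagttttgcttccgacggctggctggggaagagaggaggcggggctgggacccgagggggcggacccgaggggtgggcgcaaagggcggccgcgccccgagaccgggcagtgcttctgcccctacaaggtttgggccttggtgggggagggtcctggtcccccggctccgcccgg
The Tnnc1 window holds 2 E-boxes, 1 MCAT element and 1 TATAA, the Tnnc2 window 2 E-boxes, and the Tpm2 window 1 E-box. Among all 32851 windows of this length, 72.3% hold an E-box, 14.7% an MCAT element and 24.9% a TATAA. A full match to the MEF2 consensus is in 3.19% of all windows and a CArG box in 1.63%, and neither is in these 3 windows. These letter matches are a description of the windows and were not linked to any level.

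The labels were checked first through the targeted gene. Nrip1 had 4.64, 7.69 and 6.55 FPKM in the WT control libraries and 25.3 and 22.5 FPKM in the replicates labelled skmNrip1-/-, a log2 fold change of 1.94 (SE 0.21, adjusted p = 0.0261 from limma). The difference runs against the deletion in the label. Libraries are therefore called by their labels throughout, and every direction rests on them. The relative depth, read from the smallest steps between low values, ran from 0.803 to 1.16 of that of WT control replicate 1, and the absolute depth is unknown. The tissue label was matched by Ckm, Acta1, Ttn, Des and Myh4, which summed to 37078 to 48594 FPKM in WT control and 32750 to 34031 FPKM in the libraries labelled skmNrip1-/-. WT control replicate 1 stood apart for short genes. Over the tested genes whose longest transcript is under 1 kb, its level relative to the mean of WT control replicates 2 and 3 had a median of 0.30 on the log2 scale, against 0.17 at 1 to 2 kb, 0.01 at 2 to 4 kb and -0.12 at 4 kb or more. In bulk muscle, fewer fibers of a type and less RNA per fiber cannot be told apart.

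**Figure D1:**
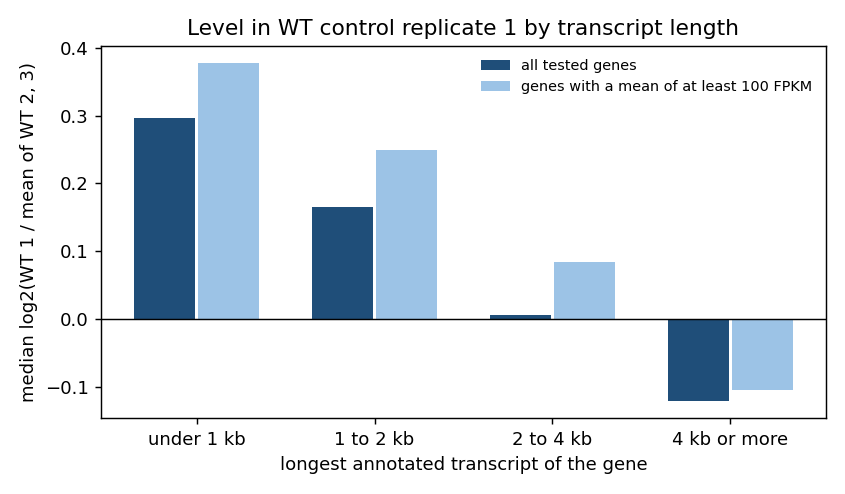
Median over genes of the log2 ratio of WT control replicate 1 to the mean of WT control replicates 2 and 3, by the length of each gene's longest annotated transcript. Dark bars stand for all tested genes and light bars for those averaging 100 FPKM or more; the medians go down from 0.30 to -0.12 and from 0.38 to -0.10 with growing length.

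TA expressed the fast set of thin filament regulators almost exclusively, in both groups. Tnnt3 averaged 20044 FPKM over the 5 libraries and was the gene with rank 10 of the whole table, Tnnc2 averaged 17083 FPKM (rank 13), Tnni2 12658 (rank 17) and Tpm1 11071 (rank 20). Tpm2 followed at 4244 FPKM (rank 32). The slow and cardiac members stood far lower, from 28.8 FPKM for Tpm3 through 7.14 for Tnnt1, 3.35 for Tnnc1 and 2.82 for Tnnt2 to 1.59 for Tnni1. Each gene was above the next one of this order in all 5 libraries. The ranges over libraries overlapped between neighbors from Tnnt3 down to Tpm1, and again from Tnnc1 down to Tnni1. Together, the 10 genes took 11.4% to 14.7% of the FPKM outside the mitochondrially encoded genes in WT control and 10.9% to 11.1% in the libraries labelled skmNrip1-/-. Of all FPKM they took 7.75%, 5.61% and 6.73% in WT control and 4.58% and 4.27% in the others, without overlap. The mitochondrially encoded genes took 45.4% to 50.7% of all FPKM in WT control and 58.6% and 60.9% in the libraries labelled skmNrip1-/-.

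**Figure D2:**
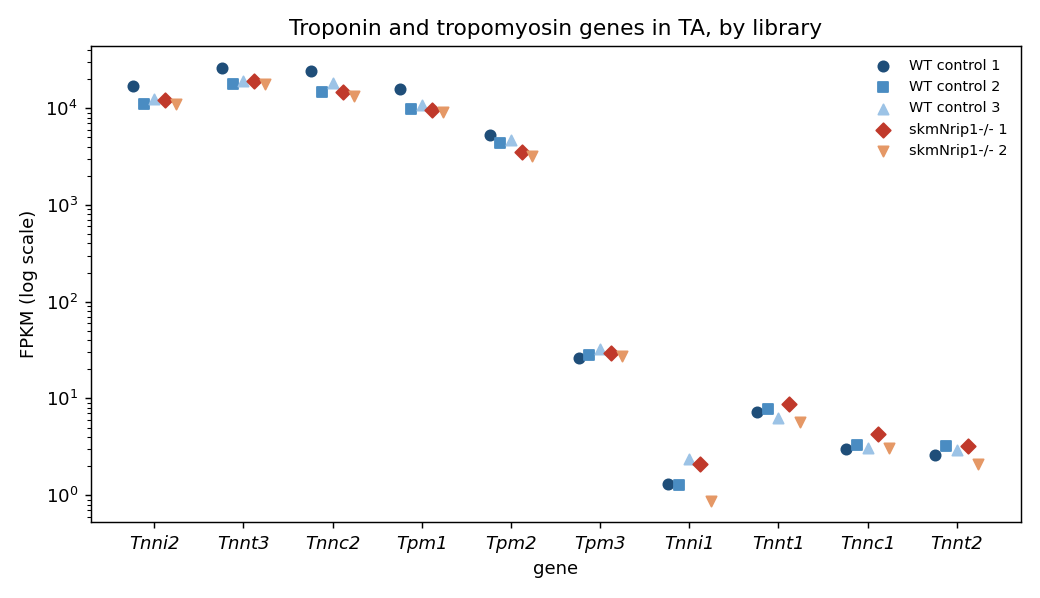
FPKM of the 10 genes on a log axis, 1 point per library. The 5 fast and beta genes lie between 3225 and 26288 FPKM, and the slow and cardiac genes between 0.879 and 32.8 FPKM; WT control replicate 1 is the highest library for all 5 of the former.

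Within families, the fast gene took nearly the whole sum. Tnni2 held 99.98% to 99.99% of the troponin I FPKM (Tnni1 plus Tnni2), Tnnt3 held 99.94% to 99.96% of troponin T, and Tnnc2 held 99.97% to 99.99% of troponin C. The tropomyosins were mixed. Tpm1 held 68.9% to 74.8% of their sum, Tpm2 25.1% to 30.9% and Tpm3 0.123% to 0.223%.

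Between the groups, none of the 10 genes was called by limma, where a call needs both a fold change of 1.2 or more and an adjusted p no higher than 0.05. Of the 12148 genes tested, 0.37% were called higher and 0.0823% lower, 0.453% in all. At an unadjusted p of 0.05 or less, 1 member (Tpm2) was lower and none was higher, against 5.33% and 6.57% of all tested genes (11.9% in either direction). The libraries labelled skmNrip1-/- lay below every WT control library for 3 members (Tnnc2, Tpm1 and Tpm2), a pattern found in 14.4% of all tested genes, and above every one for none, against 15.8%. Of the 10 log2 fold changes, 8 were below 0, and their median was -0.18, beside a median of 0.00 over all tested genes. After rescaling every library to the same FPKM sum (TPM), the median of all tested genes moves to -0.29, and the signs of Tnnt1 and Tnnc1 turn to below 0. On that scale 29 genes of the table were called higher and 59 lower, in place of 45 and 10. At an unadjusted p of 0.05 or less, 5 members were lower there, beside 29.1% of all tested genes. None of the 10 was called under any alternative tried. A missed threshold does not show equal levels, and the intervals given for each gene bound the differences that these libraries leave possible.

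**Figure D3:**
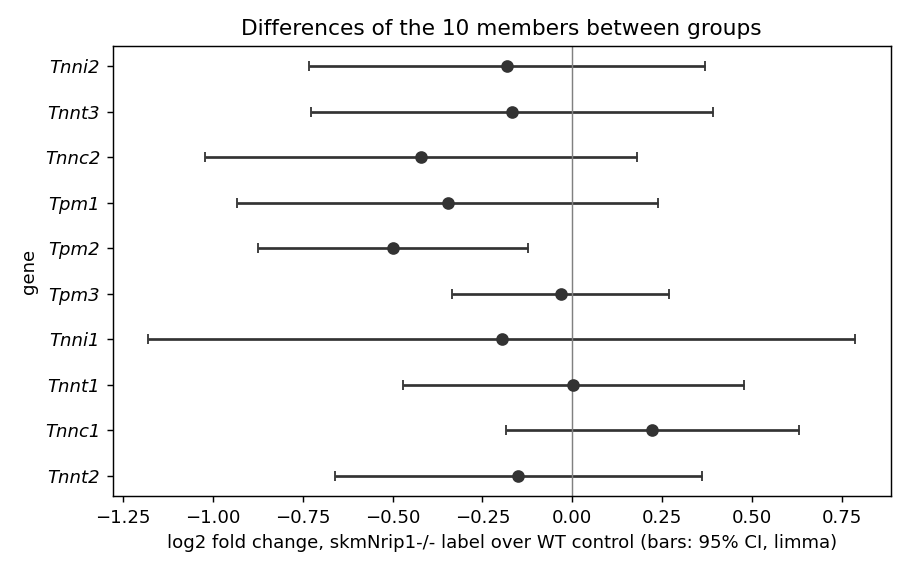
Log2 fold change of each gene, libraries labelled skmNrip1-/- over WT control, with the 95% confidence interval from limma. The interval of Tpm2, -0.88 to -0.12, lies below 0, and those of the other 9 genes include 0.

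Among the inhibitory subunits, Tnni2 (fast troponin I) was at 16795, 10991 and 12302 FPKM in WT control and at 12084 and 11118 FPKM in the replicates labelled skmNrip1-/-. The groups overlapped, and replicate 1 of WT control was the one library above the others. The log2 fold change was -0.18 (SE 0.23, 95% confidence interval -0.73 to 0.37, adjusted p = 0.823), and it was -0.0046 without that library. Tnni1 (slow troponin I) was at 1.31, 1.28 and 2.37 FPKM in WT control and at 2.11 and 0.879 FPKM in the replicates labelled skmNrip1-/-. Its highest and lowest libraries thus came from different groups with the others between them, and its interval was the widest of the members, from -1.18 to 0.79 around a log2 fold change of -0.20 (SE 0.41, adjusted p = 0.899).

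Of the tropomyosin-binding subunits, Tnnt3 (fast troponin T) was at 26288, 17820 and 19135 FPKM in WT control and at 18992 and 17984 FPKM in the replicates labelled skmNrip1-/-. The values of the latter fell inside the WT control range. Its log2 fold change was -0.17 (SE 0.23, 95% confidence interval -0.73 to 0.39, adjusted p = 0.840), and 0.0012 without WT control replicate 1. Tnnt1 (slow troponin T) was at 7.20, 7.84 and 6.23 FPKM in WT control and at 8.69 and 5.75 FPKM in the replicates labelled skmNrip1-/-, which held both its highest and its lowest value. Its log2 fold change was 0.00 (SE 0.20, 95% confidence interval -0.47 to 0.48, adjusted p = 0.997). Tnnt2 (cardiac troponin T) was at 2.58, 3.23 and 2.94 FPKM in WT control and at 3.25 and 2.09 FPKM in the replicates labelled skmNrip1-/-, again on both sides of the WT control range. The log2 fold change of Tnnt2 was -0.15 (SE 0.21, 95% confidence interval -0.66 to 0.36, adjusted p = 0.845).

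Of the calcium-binding subunits, Tnnc2 (fast troponin C) was at 24341, 14866 and 18182 FPKM in WT control and at 14690 and 13337 FPKM in the replicates labelled skmNrip1-/-. The groups did not overlap, but the gap between 14690 and 14866 was far smaller than the spread within WT control. The log2 fold change was -0.42 (SE 0.25, 95% confidence interval -1.02 to 0.18, adjusted p = 0.586), and -0.23 without WT control replicate 1. Ube2c, on the opposite strand, shares 592 of the 800 annotated exonic bases of Tnnc2 and was at 1.41 to 3.31 FPKM. Whether strand was used in the quantification is not given in the sources used here, so reads of Ube2c cannot be told apart from those of Tnnc2, whose level is far above it. Tnnc1 (slow and cardiac troponin C) was at 2.97, 3.29 and 3.11 FPKM in WT control and at 4.31 and 3.10 FPKM in the replicates labelled skmNrip1-/-. Only replicate 1 of the latter was above the WT control range, and the log2 fold change was 0.22 (SE 0.17, 95% confidence interval -0.19 to 0.63, adjusted p = 0.684).

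Tpm2, the beta chain of tropomyosin, was at 5341, 4392 and 4695 FPKM in WT control and at 3567 and 3225 FPKM in the replicates labelled skmNrip1-/-. Both of the latter were lower than every WT control library. The gap from 3567 to 4392 FPKM was larger than the difference between these 2 replicates. It was smaller than the spread within WT control, from 4392 to 5341 FPKM. The group means were 4809 ± 484 FPKM (SD, n = 3) and 3396 ± 242 FPKM (SD, n = 2). Its log2 fold change of -0.50 (SE 0.16) had an unadjusted p of 0.0169 and an adjusted p of 0.295 from limma over all tested genes, so it was not called. The adjusted p ranged from 0.0526 to 0.884 over the alternatives. The log2 fold change stayed between -0.80 and -0.42 over them, and was -0.42 without WT control replicate 1.

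Tpm1, the fast alpha chain, was at 15908, 9778 and 10907 FPKM in WT control and at 9576 and 9183 FPKM in the replicates labelled skmNrip1-/-. The groups did not overlap, and as for Tnnc2 the nearest libraries were closer to each other than the WT control libraries were among themselves. The log2 fold change was -0.35 (SE 0.24, 95% confidence interval -0.93 to 0.24, adjusted p = 0.651), and it was -0.14 without WT control replicate 1. Tpm3, the slow alpha chain, was at 26.2, 28.4 and 32.8 FPKM in WT control and at 29.4 and 27.3 FPKM in the replicates labelled skmNrip1-/-. These lay inside the WT control range. The interval of Tpm3 was the narrowest of the members, -0.34 to 0.27 around a log2 fold change of -0.03 (SE 0.13, adjusted p = 0.952). The related sequence Tpm3-rs7 was at 0 to 0.122 FPKM, so few fragments were assigned to that copy, and the non-muscle gene Tpm4 at 14.0 to 19.2 FPKM.

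The fast members moved together across the WT control libraries. Relative to the mean of WT control replicates 2 and 3, replicate 1 was 1.442 times as high for Tnni2, 1.42 times for Tnnt3, 1.47 times for Tnnc2 and 1.54 times for Tpm1, against 1.18 times for Tpm2. All these genes but Tpm1 and Tpm2 have a longest transcript under 1.1 kb. The part of transcript length in these ratios was not tested. The low members showed another split, between the libraries labelled skmNrip1-/-. Replicate 1 of these was 2.40 times replicate 2 for Tnni1, 1.51 times for Tnnt1, 1.55 times for Tnnt2 and 1.39 times for Tnnc1, against 1.04 to 1.11 times for the 5 abundant members and 1.07 times for Tpm3. The slow myosin gene Myh7 was at 1.72 and 0.449 FPKM in these replicates, and at 0.648 to 0.751 FPKM in WT control.

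The slow to fast balance was then taken as a ratio within each library, which no scaling between libraries can change. Tnni2 exceeded Tnni1 by factors of 12835, 8617 and 5193 in WT control replicates 1, 2 and 3 and by 5736 and 12642 in the replicates labelled skmNrip1-/-. The range in either group covered most of that in the other. On the log2 scale, the slow to fast ratio of troponin I was -13.02 ± 0.65 (SD, n = 3) in WT control, against -13.06 ± 0.81 (SD, n = 2) under the other label. For troponin T, Tnnt3 exceeded Tnnt1 by factors of 3653, 2273 and 3070 in WT control and 2185 and 3127 in the libraries labelled skmNrip1-/-, and the log2 ratio was -11.52 ± 0.35 (SD, n = 3) against -11.35 ± 0.37 (SD, n = 2).

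Troponin C was the only pair whose ratios did not overlap between the groups. Tnnc2 exceeded Tnnc1 by factors of 8188, 4525 and 5853 in WT control and by 3409 and 4305 in the replicates labelled skmNrip1-/-, so the slow share was higher in the latter. The gap between 4305 and 4525 was far smaller than the spread within WT control. The log2 ratio was -12.55 ± 0.43 (SD, n = 3) against -11.90 ± 0.24 (SD, n = 2), a difference of 0.65, and 0.43 without WT control replicate 1. For tropomyosin, Tpm1 exceeded Tpm3 by factors of 608, 344 and 333 in WT control and by 326 and 336 in the replicates labelled skmNrip1-/-. Replicate 1 of WT control alone was far from the rest. The difference in log2 ratio was 0.31, and only 0.03 without that library.

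Exact two-sided permutation tests over the 5 libraries gave p = 1.0 for troponin I, 0.6 for troponin T, 0.2 for troponin C and 0.4 for tropomyosin, and 1.0, 0.8, 0.8 and 0.8 after Benjamini-Hochberg adjustment over the 4 pairs. With 3 against 2 libraries there are 10 splits, and the two-sided p used here doubles the smaller tail. Its smallest possible value is 0.2, so no pair could pass 0.05. The spread between libraries of a group reached 0.81 on the log2 scale for troponin I, and smaller shifts could not be seen there.

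**Figure D4:**
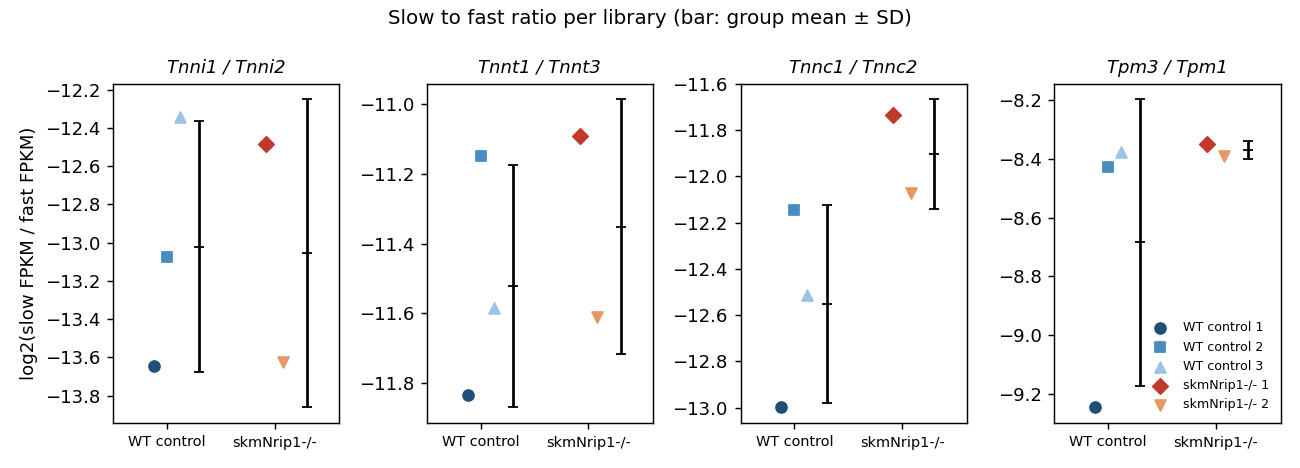
Log2 ratio of slow to fast FPKM in each library for the 4 pairs, with group mean and SD as bars; each panel has its own axis. Only the Tnnc1 to Tnnc2 ratio separates the groups (means -12.55 and -11.90), by a gap smaller than the spread within WT control. WT control replicate 1 is the lowest library in every panel.

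The abundant members were also set against Tnni2 in the same library, a description chosen after the levels were seen. Tnnt3 kept an even proportion to Tnni2, at 1.57, 1.62 and 1.56 in WT control and 1.57 and 1.62 in the replicates labelled skmNrip1-/-. The excess of WT control replicate 1 in both genes is not seen in this ratio. Tnnc2 was at 1.45, 1.35 and 1.48 times Tnni2 in WT control and at 1.216 and 1.1998 times in the replicates labelled skmNrip1-/-. Tpm1 was at 0.947, 0.890 and 0.887 times Tnni2 in WT control and at 0.792 and 0.826 times in the others. For Tpm2 the ratios were 0.318, 0.400 and 0.382 against 0.295 and 0.290. The ratios of Tnnc2, Tpm1 and Tpm2 to Tnni2 were thus lower in both libraries labelled skmNrip1-/- than in every WT control library, by mean factors of 0.846, 0.891 and 0.799, and that of Tnnt3 overlapped (1.01). These 3 genes are those whose FPKM already did not overlap. Among the 12147 other tested genes, the ratio to Tnni2 was lower without overlap for 3.27% and higher without overlap for 18.2%. Tnni2 was highest in WT control replicate 1, which lowers the ratio there for genes without that excess. The 3.27% is therefore no like-for-like baseline for genes that share the excess. Of 11 other fast contractile genes, 6 were also lower without overlap in FPKM, and 0 higher, beside 14.4% and 15.8% of all tested genes. The ratios of these fast genes to Tnni2 were not tested.

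**Figure D5:**
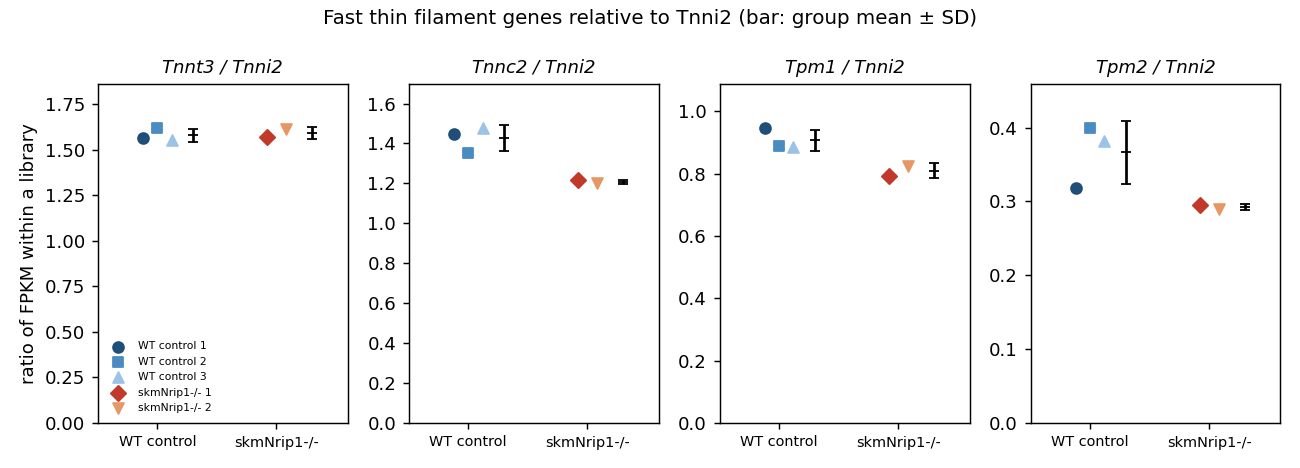
FPKM of Tnnt3, Tnnc2, Tpm1 and Tpm2 divided by that of Tnni2 in the same library, with group mean and SD as bars and axes from 0. The Tnnt3 ratio lies at 1.56 to 1.62 in all libraries, and the other ratios are lower in the libraries labelled skmNrip1-/-.

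Summed over families, troponin T to troponin I was 1.56 to 1.62 in all libraries. Tropomyosin to troponin I was 1.27, 1.29 and 1.27 in WT control and 1.09 and 1.12 in the libraries labelled skmNrip1-/-. Troponin C to troponin I was 1.43 ± 0.066 (SD, n = 3) against 1.21 ± 0.011 (SD, n = 2). In both cases the distance between groups was larger than the spread within either, and no p is given, since the sums run over chosen genes.

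The remaining genes of the thin filament were followed in a list of 19, of which 18 were tested. Of these, 1 was called higher and none lower, and the median log2 fold change was -0.01. Without overlap, 6 were lower and 2 higher, beside 14.4% and 15.8% of all tested genes. Actc1, the cardiac actin gene, rose from 74.1 ± 24.2 FPKM (SD, n = 3) to 403 ± 127 FPKM (SD, n = 2), a log2 fold change of 2.46 (SE 0.31, adjusted p = 0.0394 from limma). The call was lost on leaving out any single library (adjusted p from 0.0534 to 0.221). The most abundant partner of the members, Acta1 (skeletal actin), was at 21925, 16403 and 19565 FPKM in WT control and 14766 and 14369 FPKM in the replicates labelled skmNrip1-/- (log2 fold change -0.40, adjusted p = 0.517). Neb, whose product runs along the whole thin filament, was at 1715 to 1757 FPKM in every library (log2 fold change 0.00, SE 0.12). Lmod1, a leiomodin gene, had the lowest log2 fold change of the list, -0.42 (adjusted p = 0.405), at 1.09 to 1.61 FPKM.

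Other contractile genes of slow and fast fibers were set beside the members. None of 8 slow genes and none of 11 fast genes was called, and the medians of their log2 fold changes were 0.09 and -0.22. At an unadjusted p of 0.05 or less from limma, 3 fast genes were lower and 0 higher, and 2 slow genes were lower and 1 higher. At that threshold 5.33% of all tested genes were lower and 6.57% higher. Without overlap, 6 fast genes were lower and 0 higher, and 2 slow genes were lower and 1 higher. Of all tested genes, 14.4% were lower and 15.8% higher without overlap. Within the slow list the directions split. Myl2 (slow myosin regulatory light chain) was at 2.03, 1.85 and 9.68 FPKM in WT control and 42.1 and 33.6 FPKM in the replicates labelled skmNrip1-/- (log2 fold change 3.46, adjusted p = 0.127). Its adjusted p was 0.226, 0.166 and 0.00446 without WT control replicates 1, 2 and 3, and 0.260 with a robust variance model. Myl3 and Myoz2 were lower without overlap (log2 fold changes -1.24 and -0.98, adjusted p = 0.359 and 0.414). Csrp3 had the lowest value, -1.34 (adjusted p = 0.461), with 478 FPKM in WT control replicate 3 against 63.6 to 177 FPKM elsewhere. That library also had the highest Myl3, Myoz2 and Myh2, and among the members the highest Tnni1 and Tpm3 but the lowest WT control value of Tnnt1. In the fast list, Actn3 had the largest negative log2 fold change, -0.77 (adjusted p = 0.169), and Myh1 the only positive one, 0.05.

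Cells other than fast fibers could add to the low members and to the tropomyosins. Of the 5 cardiac markers, Tnni3, Myh6 and Ryr2 were in the table, with sums of 1.87 to 3.67 FPKM in WT control and 1.09 to 1.84 FPKM in the libraries labelled skmNrip1-/-, and Nppa and Myl7 were not among its genes. The 4 slow fiber markers (Myh7, Myl2, Myl3 and Atp2a2) summed to 100 to 305 FPKM and 107 to 114 FPKM. The 7 markers of regenerating, embryonic or denervated muscle summed to 16.7 to 19.3 FPKM in WT control and to 17.6 and 30.4 FPKM in the others. Of these, Ncam1 was at 4.599, 1.33 and 1.90 FPKM in WT control and at 4.35 and 14.2 FPKM in the others (log2 fold change 1.75, unadjusted p = 0.0283 and adjusted p = 0.349 from limma). Chrng, the embryonic acetylcholine receptor subunit, was at 0.0163 to 0.0410 FPKM in WT control and at 0.193 and 0.301 FPKM in the others, without overlap but below the minimum for testing. The other markers of this list did not share a direction. Myog was lower without overlap (log2 fold change -0.43, adjusted p = 0.557). Myh8 and Myod1 had log2 fold changes of -0.10 each, Myh3 of 0.53 and Chrna1 of 0.20. The 5 smooth muscle markers summed to 887 to 1127 FPKM and 984 to 1041 FPKM, nearly all of it Des, which skeletal fibers also express. The 4 fibroblast markers summed to 153 to 221 FPKM and 181 to 242 FPKM, and the 3 endothelial markers to 55.1 to 64.2 FPKM and 52.5 to 59.1 FPKM. None of these markers was called, and their part in the levels of the members was not tested.

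Among 12138 other tested genes, those whose centered log2 profile over the 5 libraries was nearest to that of Tnni1 were Apoa4, Chaf1a and Vps45, with mean absolute differences of 0.06, 0.09 and 0.10 on the log2 scale. For Tnni2 they were H2-Q4, Nectin2 and Uqcc2, each at 0.02. None of these is known to be part of the thin filament.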

How the data were processed

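RNA from TA was made into libraries with the NEBNext Ultra kit and sequenced, and the authors quantified the reads with Salmon 1.10.2 on mm10, used tximport to obtain gene values, and deposited FPKM. How the FPKM were computed, the annotation release and the use of strand are not given in the sources used here. The median ratio of every library to the genes' geometric means was 1.00, so a scaling between libraries is already in the deposited FPKM. The authors also deposited log2 fold changes and adjusted p-values from DESeq2 1.44.0, which were not used. FPKM are not counts, so no counting intervals are given.

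Genes averaging 0.5 FPKM or more entered limma 3.58.1 (R 4.3.3; lmFit and eBayes with trend) on log2(FPKM + 0.1), with all 5 libraries, no covariates and Benjamini-Hochberg adjustment over 12148 genes. Fold changes on this scale understate those of low genes. Adjusted p-values are from this fit unless another test is named, and calls needed a fold change of 1.2 or more and an adjusted p no higher than 0.05. Confidence intervals are limma's, at 95%. Slow to fast ratios used no pseudocount. Libraries were grouped by their labels. Nothing in the labels says which samples are separate mice, so p-values measure the spread between libraries. The members and lists were chosen with earlier results of these data known. Named besides the members are Nrip1, the largest rise and fall and any call of each list, and the 3 genes nearest in profile to Tnni1 and Tnni2. Further genes of the lists that are given with values were named after those values were seen. Among them are Myh7, Acta1, Neb, Myl3, Myoz2, Myh2, Ncam1 and Chrng. The neighboring or related genes were named in the same way. Positions are from GENCODE M21, which holds 16996 of the 17015 IDs. Alternatives were other pseudocounts, minimums, scalings and variance models, the replicate number as a block, stricter or looser calls, and leaving out each library. The limma step was tested on simulated data. Python 3.11.15, pandas 2.3.3, numpy 2.4.6, scipy 1.17.1 and matplotlib 3.10.9 were used.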

Additional observations from a re-analysis of the deposited data

How the results depend on the processing

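No member was called under any of the 16 alternatives, and the log2 fold changes of Tnni2, Tnnc2, Tpm1 and Tpm2 stayed below 0 under all 14 that refit them. At an unadjusted p of 0.05 or less, 5 members were lower after TPM scaling (29.1% of all tested genes) and 0 without a minimum on the mean FPKM, and leaving out a library gave 0 to 1 lower and 0 to 1 higher. Members below or above without overlap numbered 3 to 6 and 0 to 3 on leaving out a library, a check added after seeing the data. Without WT control replicate 2 there were 5 below (23.7% of all tested genes), without replicate 1 labelled skmNrip1-/- there were 6 below (26.3%), and without its replicate 2 there were 3 above (25.7%).

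Signs turned for members near 0. TPM scaling gave Tnnt1 -0.29 and Tnnc1 -0.068, beside a median of -0.29 over all tested genes on that scale. The replicate block gave Tnni1 0.079, Tnnt1 -0.086 and Tpm3 0.056, the same values as without WT control replicate 3. On leaving out a library, Tnni1 ranged from -0.78 to 0.39, Tnnt1 from -0.29 to 0.30, Tnnt2 from -0.46 to 0.15, Tnnt3 from -0.28 to 0.0012, Tnnc1 from -0.0095 to 0.45 and Tpm3 from -0.11 to 0.056. The troponin I ratio difference (-0.03) turned to 0.072 with a pseudocount of 1 and 0.30 with the block, and ranged from -0.60 to 0.54 on leaving out a library. The troponin T difference (0.17) ranged from -0.087 to 0.43, and those of troponin C (0.43 to 0.85) and tropomyosin (0.03 to 0.47) stayed above 0. The cause of these changes was not tested.

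Calls over all genes (45 higher, 10 lower) were 29 and 59 after TPM scaling, 22 and 3 without the trend, 18 and 4 with the block, 14 and 3 with the adjusted p limit at 0.01, and 6 to 51 and 2 to 15 on leaving out a library. Nrip1 lost its call without the trend (log2 fold change 1.94, adjusted p = 0.0769), with the block (1.98, adjusted p = 0.128) and without WT control replicate 3 or either library labelled skmNrip1-/- (1.74 to 2.09 on leaving out a library, adjusted p up to 0.204). Called thin filament genes went from 1 to 0 without a minimum on the mean FPKM, without the trend and on leaving out any library (0 in each), the slow list from 0 to 1 with the block (Myl2) and 0 to 1 on leaving out a library, and the fast list from 0 to 1 (Actn3, lower) after TPM scaling. Replicates share only a number, since same-numbered libraries come from different mice. Their deviations from the group means correlated at 0.06 and 0.10 over genes. Among the members and the thin filament, slow and fast lists, the block changed no call other than that of Myl2. Over all genes it removed many calls, as given above.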
